A study of Homo sapiens with 6 samples.

Results

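The AP-1 transcription factor genes FOS, FOSB, FOSL1, FOSL2, JUN, JUNB, JUND, ATF3 and BATF3 were followed by RNA-seq in HCT116 cells, an established human colon cancer line, after auxin treatment designed to deplete the chromatin reader ENL, and after auxin washout. ENL protein was not analysed here. They are the 9 genes, of 31628 in the deposited table, whose symbol is exactly one of these names, and each has 1 row. All 6 libraries came from cells in which ENL carries an auxin-inducible degron and which stably express AtAFB2, the plant ubiquitin ligase component that recognises it. The washout group (2 libraries) received the auxin IAA for 3 h, was washed with PBS and grown for another 48 h in normal medium. The IAA group (2 libraries) received 500 um IAA, as the labels write the dose, for 3 h. The control group (2 libraries) was untreated. Per the labels AID clones were selected with puromycin and blasticidin, with no statement of whether 1 clone or several gave these libraries. Nothing says that the replicates were separate cultures, so p-values measure only the spread between these libraries. No cells without the degron were analysed here, so effects of IAA itself and of ENL loss cannot be told apart.

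AP-1 is a dimer of basic leucine zipper (bZIP) proteins that binds short DNA sites in enhancers and promoters. FOS proteins need a partner, usually a JUN protein, whereas JUN proteins also pair with one another, and ATF3 and BATF3 pair with JUN proteins. FOS, FOSB, JUN, JUNB and ATF3 are classic immediate early or stress genes, whose short-lived mRNAs follow growth factor and stress kinases. FOSL1 is known for sustained expression in cells with active RAS and ERK signalling.

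The stretch of 250 bases before the transcription start is shown for 3 genes that rose with IAA and for FOSL2, which did not pass the test, because these promoters are where kinase signals are known to act on AP-1 genes. Sequences are those of RefSeq on GRCh38.p14, read 5′ to 3′ on the strand of the gene, and the deposited values were made on hg19 and carry no coordinates. Capitals mark 3 motifs. TGACG is the core of the cyclic AMP response element (CRE) and is marked on either strand. A TATA box was read as TATAAA. The site TGACATCA resembles a CRE.
FOS (chr14:75278578-75278827, plus strand): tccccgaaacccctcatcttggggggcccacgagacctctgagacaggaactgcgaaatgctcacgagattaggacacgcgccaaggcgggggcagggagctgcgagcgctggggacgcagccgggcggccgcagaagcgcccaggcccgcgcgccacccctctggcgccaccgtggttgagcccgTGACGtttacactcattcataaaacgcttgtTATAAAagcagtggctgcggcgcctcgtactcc
FOSB (chr19:45467746-45467995, plus strand): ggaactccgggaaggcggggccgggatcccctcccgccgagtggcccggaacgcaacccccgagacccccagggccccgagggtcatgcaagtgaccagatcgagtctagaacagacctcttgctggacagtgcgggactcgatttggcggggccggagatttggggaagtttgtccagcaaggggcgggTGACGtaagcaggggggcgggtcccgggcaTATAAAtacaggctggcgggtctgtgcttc
JUN (chr1:58784048-58784297, minus strand): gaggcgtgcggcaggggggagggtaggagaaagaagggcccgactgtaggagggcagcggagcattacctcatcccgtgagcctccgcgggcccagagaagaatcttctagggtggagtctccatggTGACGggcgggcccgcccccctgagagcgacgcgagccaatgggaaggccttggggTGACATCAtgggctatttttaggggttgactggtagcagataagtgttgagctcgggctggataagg
FOSL2 (chr2:28392608-28392857, plus strand): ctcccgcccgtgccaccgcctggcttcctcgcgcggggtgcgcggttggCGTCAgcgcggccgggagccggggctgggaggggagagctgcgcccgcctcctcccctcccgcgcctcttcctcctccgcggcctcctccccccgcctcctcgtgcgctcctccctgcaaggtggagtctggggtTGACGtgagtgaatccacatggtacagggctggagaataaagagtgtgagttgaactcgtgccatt

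Positions count from the start, with negative numbers before it. In FOS, TGACG on the coding strand lies from -64 to -60 and TATAAA from -33 to -28. FOSB has the same layout, with TGACG from -60 to -56 and TATAAA from -30 to -25. FOSL2 has TGACG at nearly the same place, from -66 to -62, and again on the other strand from -201 to -197. JUN has TGACG from -123 to -119 and TGACATCA from -67 to -60. The window of JUND holds a full CRE, TGACGTCA, from -200 to -193, which contains TGACG on both strands, and 1 more TGACG from -86 to -82. In JUNB, TGACG lies from -137 to -133 and TATAAA from -31 to -26. ATF3 has 2 listed starts, one with TGACATCA from -123 to -116 and the other with TATAAA from -230 to -225. Whether either start of ATF3 is the one used in these cells was not tested. FOSL2 holds an AP-1 site (TGANTCA) from 5 to 11.

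These motifs were searched on both strands of windows of 300 bases (250 before the start and 50 after) in 35116 promoters. TGACG was found in 24.6% of them, TATAAA in 11.5%, TGANTCA in 7.71%, TGACATCA in 2.61% and TGACGTCA in 1.85%. The CArG box, the site of serum response factor, was found in 1.29% of all windows and in 0 of the 8 windows of 7 AP-1 genes. Bases further than 250 before the start were not searched, so a CArG box upstream of the window would have been missed. The core of the aryl hydrocarbon receptor site, GCGTG, was found in 36.5% of all windows and in those of FOS, FOSB, JUN and JUNB. The map of motif matches shows that TGACG occurs both in genes that rose with IAA and in FOSL2. FOSL1 and BATF3 had no entry in the promoter table.

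**Figure D1:**
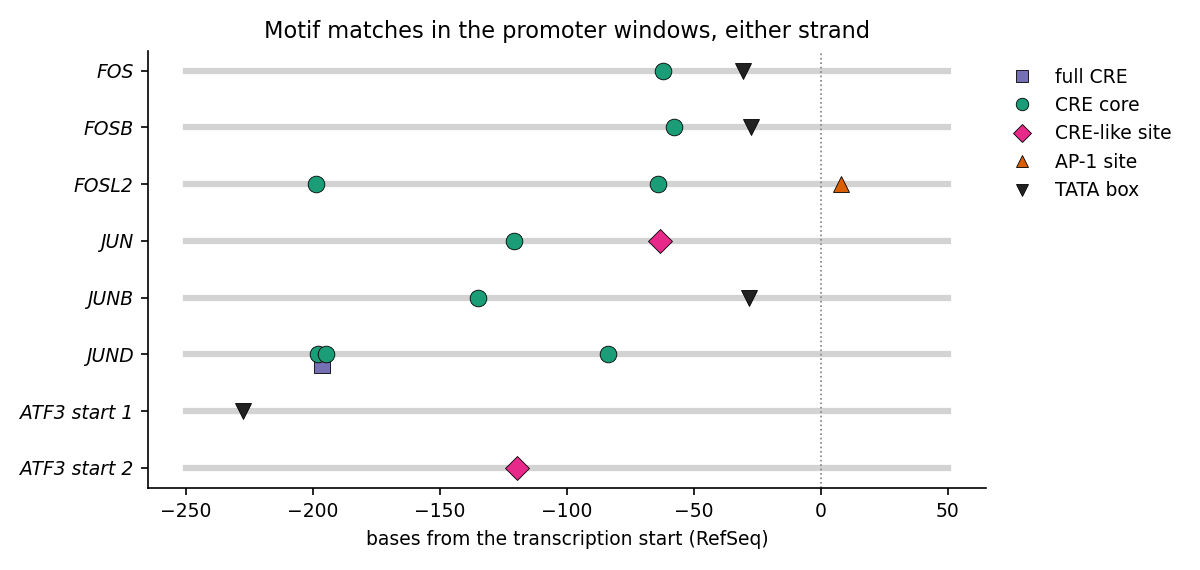
Motif matches in the RefSeq promoter windows of 7 AP-1 genes, with the distance from the transcription start in bases on the horizontal axis and 1 row per start (ATF3 has 2). Symbols mark the kind of motif; in FOS and FOSB a CRE core lies from -64 to -60 and from -60 to -56, upstream of a TATA box.

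Library totals, worked out from the steps of the FPKM values, ran from 16442840 to 16770850 reads. Whole reads recovered with these totals summed to more, from 16913270 to 17215000, and exceeded the total in every library. The cause of this excess was not tested. The recovered whole reads of all 9 genes are used below beside FPKM, because FPKM here divided by the whole gene span, introns included. Whether reads in introns were counted is not stated, so levels of genes with long introns depend on the length they are divided by. In ATF3 the span is 55444 bases, of which 4040 are exon in GENCODE 29. Epithelial identity was checked on 10 markers, of which 9 had a mean FPKM of at least 1 (KRT18 156, KRT19 121, EPCAM 6.02, CDH1 1.64), VIL1 through the IAA group alone. Their summed FPKM was 332 and 347 after washout, 277 and 280 with IAA and 344 and 354 in control, a sum carried by KRT8, KRT18 and KRT19, which were lowest in both IAA libraries. EPCAM was lower too, with 5.82 and 5.66 FPKM with IAA, against 6.46 and 6.12 FPKM in control. Other markers went the other way: CDX2 had 2.24 and 2.34 FPKM with IAA, against 1.50 and 1.91 FPKM in control. CLDN4, ELF3 and VIL1 were also higher in both IAA libraries than in both control libraries. For CLDN4 the gap was small (5.15 and 5.56 FPKM with IAA, 5.13 and 5.14 FPKM in control). Among all genes averaging 1 FPKM or more, 33.7% were higher in both IAA libraries. The part of these marker shifts in any result was not tested. Among 17 fibroblast, endothelial and blood cell markers found in the table, 0 reached a mean FPKM of 1, 2 were at 0 in every library, and their sum stayed between 0.722 and 1.04. MLLT1, which encodes ENL, had 463 and 428 reads after washout, 445 and 402 with IAA and 459 and 480 in control. The degron acts on the protein, so these reads do not check the depletion.

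IAA was first set against control to ask which AP-1 genes moved within 3 h of IAA. FOS, JUN, JUNB and JUND rose on FPKM, and FOSB and ATF3 rose on recovered reads. FOSL1, FOSL2 and BATF3 did not pass. In bulk RNA, more cells that express a gene and more RNA per cell cannot be told apart. The 8317 genes averaging 1 FPKM or more were tested with limma on log2(FPKM + 1), and changed means an adjusted p under 0.05. By this test 4 of the 6 AP-1 genes that passed the filter rose, 0 fell and 2 did not pass the threshold, where 13.1% of all tested genes changed, 6.64% rising and 6.49% falling (552 and 540 genes, against 405 and 636 when the values were rescaled to TPM). On recovered reads (14367 genes with a mean of at least 10 reads, limma's voom) 6 of 9 rose and 0 fell, where 24.5% of all genes changed, 14.2% rising and 10.4% falling (2033 and 1488 genes, against 1566 and 1902 with reads scaled by the median of ratios between libraries). The calls of the 4 and the 6 AP-1 genes held under these scalings. The median log2 change over all tested genes was 0.01 by limma and 0.04 by voom. The AP-1 genes were chosen with earlier results of these data known, so these counts are a description only.

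FOS, the founding partner of JUN in AP-1, had 7.04 and 6.66 FPKM with IAA, against 2.32 and 2.40 FPKM in control. These stand for 400 and 386 reads with IAA, against 133 and 139 in control, and the groups did not overlap, with both IAA libraries higher as in 35.1% of all genes tested on reads. The mean was 2.90-fold higher with IAA (6.85 ± 0.268 against 2.36 ± 0.0583 FPKM, SD, n = 2 each). The limma log2 change was 1.22 (SE 0.0449, adjusted p = 0.00167), place 15 among 8317 ordered from the largest rise, and on reads it was 1.53 with a 95% interval of 1.24 to 1.83. The limma adjusted p of FOS stayed between 0.0154 and 0.0343 without any 1 of the 6 libraries.

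FOSB, a close relative of FOS, had 1.97 and 1.27 FPKM with IAA, against 0.394 and 0.374 FPKM in control. Its reads were 233 and 153 with IAA, against 47 and 45 in control. Both IAA libraries stood above both control libraries, as in 35.1% of all genes tested on reads. The 2 IAA libraries differed from each other beyond counting error, with exact Poisson 95% intervals of 204 to 264.9 and 129.7 to 179.3 reads. FOSB missed the FPKM filter with a mean of 0.775 over the 6 libraries, so it was tested on reads, where its log2 change was 2.03 (95% interval 1.50 to 2.56, voom adjusted p = 1.10e-07, 4.08-fold). This was the largest change among the 9 genes. With no filter, limma on log2(FPKM + 1) gave FOSB a log2 change of 0.91 that did not pass (adjusted p = 0.0628). The gene span of FOSB overlaps that of ERCC1 on the other strand without sharing exon bases, and ERCC1 fell (voom log2 change -0.32, adjusted p = 4.71e-06), opposite to FOSB.

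FOSL1, the FOS relative known for sustained expression, had 25.1 and 28.0 FPKM with IAA, against 24.4 and 27.1 FPKM in control. The groups overlapped, and the log2 change was 0.04 on reads (95% interval -0.06 to 0.15, voom adjusted p = 0.591). FOSL2 had 4.48 and 4.41 FPKM with IAA, against 4.40 and 4.48 FPKM in control. Its log2 change on reads was 0.00 with a 95% interval of -0.11 to 0.11 (voom adjusted p = 0.997). Both intervals leave out a rise of the size that the JUN genes showed.

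JUN, which pairs with FOS proteins and with itself, had 24.0 and 22.9 FPKM with IAA, against 15.1 and 17.5 FPKM in control. Both IAA libraries were higher, as in 33.7% of all limma-tested genes, and the mean was 1.44-fold higher (limma log2 change 0.50, SE 0.0881, adjusted p = 0.031). On reads, 1311 and 1273 with IAA against 832 and 972 in control, its log2 change was 0.53 (95% interval 0.38 to 0.68, voom adjusted p = 6.45e-07). JUN lost its limma call without each of the 6 libraries in turn (adjusted p 0.0573 to 0.137), and in a fit with the replicate number as a block (0.0561).

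JUNB, a JUN relative often described as a weaker activator, had 56.4 and 59.5 FPKM with IAA, against 43.5 and 45.9 FPKM in control. It was 1.30-fold higher (limma log2 change 0.37, SE 0.0495, adjusted p = 0.0186, and 0.37 on reads with a 95% interval of 0.25 to 0.50). JUND, the member known for steady expression in resting cells, had 76.5 and 80.0 FPKM with IAA, against 55.6 and 53.6 FPKM in control. It was 1.43-fold higher (limma log2 change 0.51, SE 0.0498, adjusted p = 0.011, and 0.52 on reads with a 95% interval of 0.41 to 0.63). For both genes every IAA library was above every control library, a separation that 33.7% of all limma-tested genes also showed.

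JUNB and JUND lost the limma call without control replicate 1, control replicate 2, IAA replicate 1 or IAA replicate 2 (adjusted p up to 0.0915 and 0.0761), so the count of 4 AP-1 genes that rose became 1, FOS, without any of these libraries. Without washout replicate 1 or 2, which leaves fewer libraries for the shared spread, it was 3. On reads, log2 changes without each library in turn ranged from 0.42 to 0.63 for JUN, 0.33 to 0.41 for JUNB and 0.49 to 0.55 for JUND (voom). The prior degrees of freedom of these fits ran from 27.5 to 90.71, against 34.13 with all libraries. Their p-values therefore do not measure how far a call depends on 1 library. Exons of JUNB share 259 bases with those of HOOK2 on the other strand, and no label says whether reads were counted by strand. HOOK2 had 840 and 824 reads with IAA, against 870 and 911 in control (voom adjusted p = 0.423).

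ATF3, a stress-induced partner of JUN proteins, had 0.611 and 0.546 FPKM with IAA, against 0.235 and 0.214 FPKM in control. Its reads were 557 and 508 with IAA, against 216 and 199 in control. Both IAA libraries were higher, as in 35.1% of all genes tested on reads. On reads the log2 change was 1.36 (95% interval 1.11 to 1.61, voom adjusted p = 2.76e-11, 2.57-fold), place 83 among 14367 ordered from the largest rise. With no filter, limma on log2(FPKM + 1) called ATF3 higher too (0.37, adjusted p = 0.02). BATF3, known from dendritic cell development, had 23 and 14 reads with IAA, against 19 and 25 in control. At this depth its 95% interval ran from 0.442-fold to 1.56-fold (voom log2 change -0.27, adjusted p = 0.725).

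**Figure D2:**
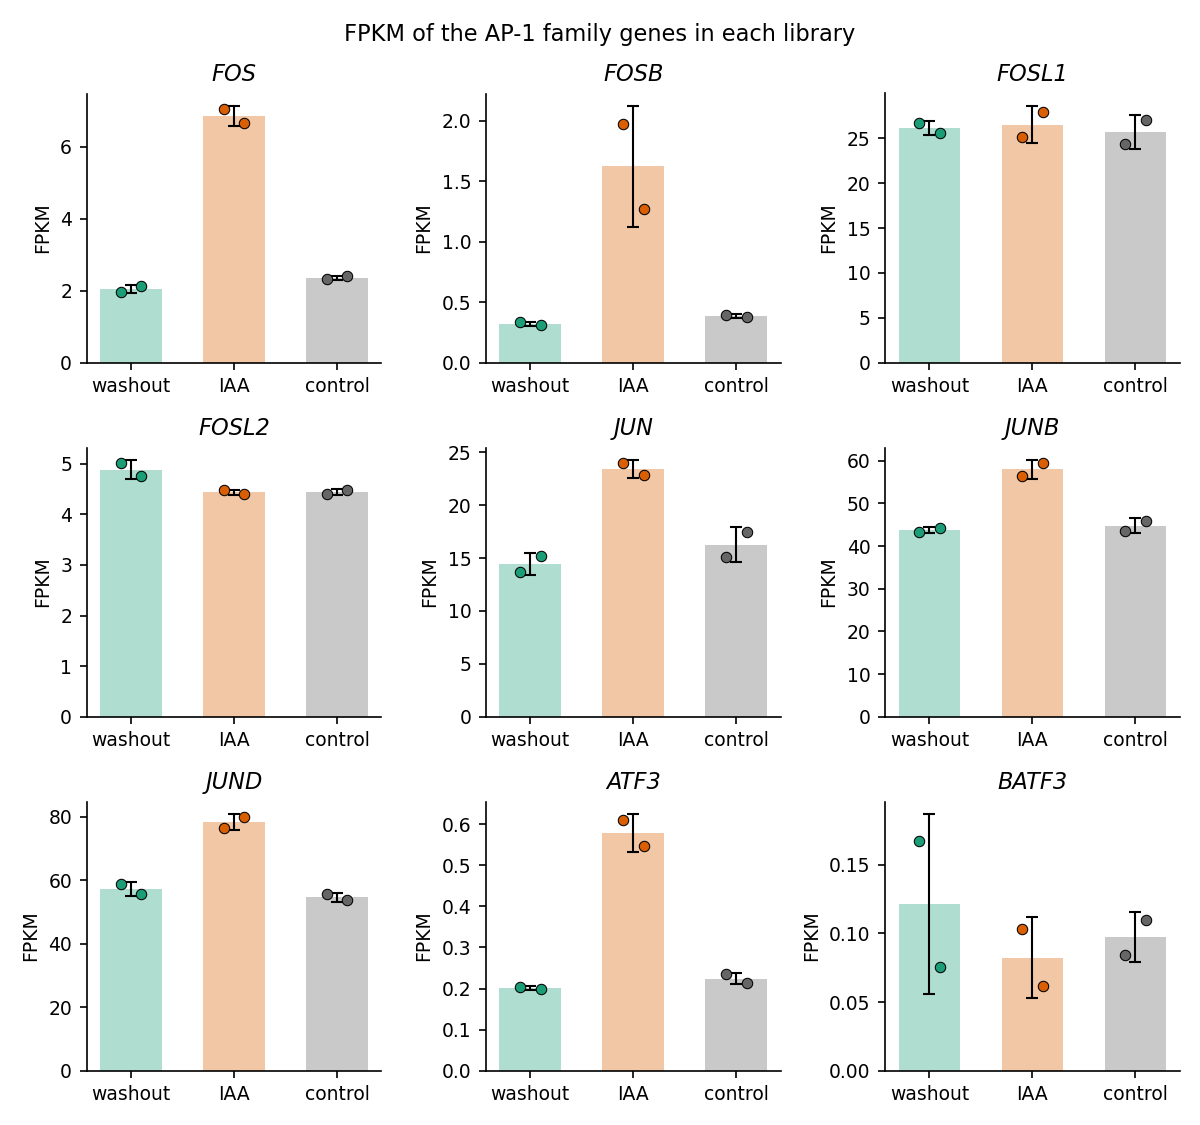
FPKM of each AP-1 gene on its own vertical axis from 0, for washout, IAA and control. Points are libraries, bars the mean and error bars the SD (n = 2 each). In FOS, FOSB, JUN, JUNB, JUND and ATF3 both IAA points lie above both control points, as in 35.1% of all genes tested on reads.

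The rises fell into 2 size ranges that did not overlap on reads. The 95% intervals of FOS, FOSB and ATF3 began at 1.24, 1.50 and 1.11, above the upper ends for JUN, JUNB and JUND at 0.68, 0.50 and 0.63 on the log2 scale. No test of the difference between genes was run.

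**Figure D3:**
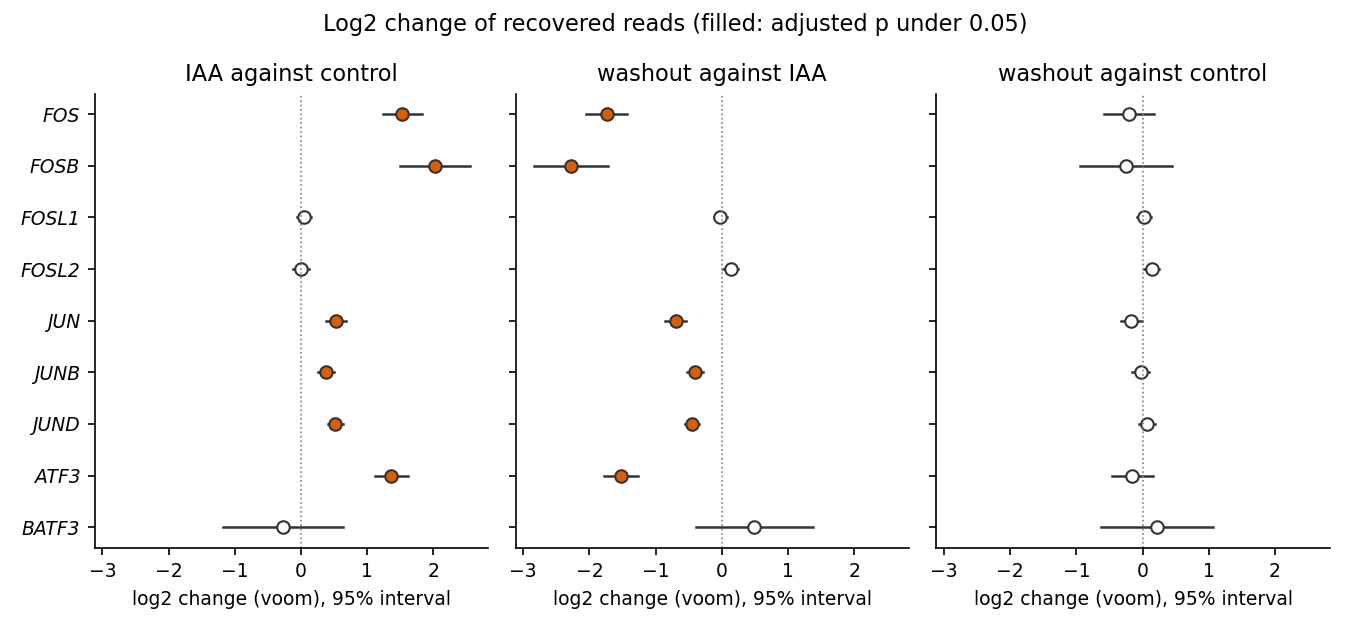
Log2 change of recovered reads for the 9 AP-1 genes in 3 comparisons, with 95% intervals from voom as lines. Filled points have an adjusted p under 0.05. With IAA 6 genes rose, where 14.2% of all genes tested on reads rose. The same 6 fell in washout against IAA, which uses the same IAA libraries, where 13.8% of all genes fell. In washout against control 0 passed, where 0.696% of all genes passed.

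Levels of different genes were compared per exon length, as recovered reads per kb of GENCODE 29 exon and scaled to the library total (RPKM over exons). This scale treats all counted reads as exonic, which the labels do not say, and the order changes on deposited FPKM, where the length is the span. On the exon scale FOSL1 was the most abundant, at 120 ± 9.18 with IAA and 116 ± 8.46 in control (SD, n = 2 each). JUND followed at 78.6 ± 2.51 with IAA and 54.8 ± 1.40 in control, then JUNB at 57.8 ± 2.14 with IAA and 44.6 ± 1.74 in control. JUN stood at 22.0 ± 0.764 with IAA and 15.3 ± 1.58 in control, and FOSL2 at 15.4 ± 0.174 with IAA and 15.4 ± 0.196 in control. In control, FOSL1 had 25.7 ± 1.87 deposited FPKM, below JUND (54.6 ± 1.40) and JUNB (44.7 ± 1.74). JUN and FOSL2 did not differ beyond their spread in control on the exon scale, but had 16.3 ± 1.68 and 4.44 ± 0.0565 deposited FPKM, so their order is not settled. With IAA both JUN libraries (22.5 and 21.4 on the exon scale) lay above both FOSL2 libraries (15.6 and 15.3).

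The genes with the 3 largest relative rises were among the 4 least abundant in control. ATF3 had 7.94 ± 0.627 with IAA and 3.08 ± 0.198 in control, FOS 7.31 ± 0.286 with IAA and 2.52 ± 0.0623 in control, and FOSB 2.10 ± 0.643 with IAA and 0.496 ± 0.0185 in control, on the same scale. BATF3 was at 0.412 ± 0.147 with IAA and 0.486 ± 0.0906 in control, and did not differ from FOSB in control beyond its spread. Summed on this scale, FOS and FOSB together had 10.1 and 8.75 with IAA, against 2.98 and 3.04 in control. FOSL1 and FOSL2 together had 129 and 142 with IAA, against 126 and 138 in control, so most FOS-family RNA came from FOSL1 and FOSL2 in both groups. JUN, JUNB and JUND together had 156 and 161 with IAA, against 113 and 116 in control. Over all 9 genes the sum was 303 and 319 with IAA, against 246 and 260 in control, with both IAA libraries higher.

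After washout both FOSL2 libraries (17.0 ± 0.64) stood above both JUN libraries (13.6 ± 0.984) on the exon scale, and below them on deposited FPKM (4.88 ± 0.184 for FOSL2 and 14.5 ± 1.05 for JUN). On the exon scale FOSL1 was at 118 ± 3.49, JUND at 57.4 ± 2.34, JUNB at 43.6 ± 0.75, ATF3 at 2.76 ± 0.0553, FOS at 2.18 ± 0.111 and FOSB at 0.416 ± 0.0217 (SD, n = 2). BATF3, at 0.607 ± 0.326, had libraries of 0.838 and 0.376 on either side of those of FOSB. The sum over all 9 genes was 259 and 252 after washout, which overlaps the control libraries.

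**Figure D4:**
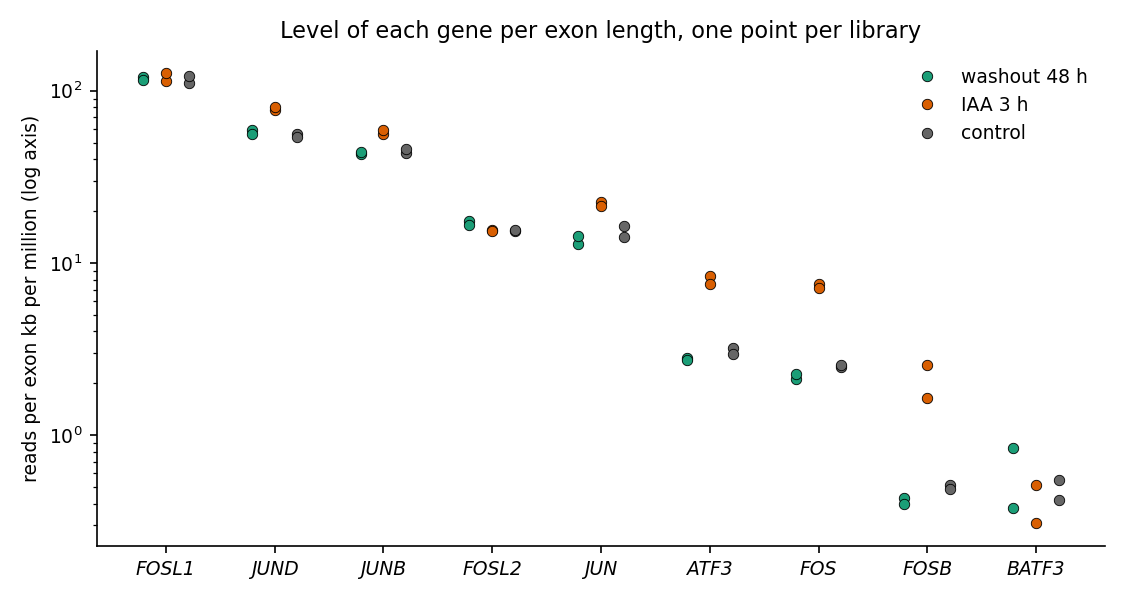
Recovered reads per exon kb, scaled to the library total, on a log axis, 1 point per library, for washout, IAA and control, with genes ordered by their level in control. FOSL1 is highest in every library on this scale, and FOS, FOSB and ATF3 show the widest gaps between IAA and control.

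Washout was then set against IAA to ask whether these genes stood lower 48 h after IAA was removed. The washout libraries also differ by a PBS wash and 48 h more growth in normal medium. These cannot be told apart from the removal of IAA. All 6 AP-1 genes that rose with IAA fell on reads, and 4 of the 6 tested by limma fell, where 6.65% of all genes fell and 7.73% rose by limma, and 13.8% fell and 11.7% rose by voom. Both comparisons use the same IAA libraries, so a fall here is not independent of the rise above. FOS had 1.97 and 2.12 FPKM after washout, against 7.04 and 6.66 FPKM with IAA (0.299 of IAA, limma log2 change -1.37, SE 0.0449, adjusted p = 0.00183). FOSB had 40 and 37 reads after washout, against 233 and 153 with IAA (voom log2 change -2.28, 95% interval -2.85 to -1.72). ATF3 had 189 and 183 reads after washout, against 557 and 508 with IAA (voom log2 change -1.52, 95% interval -1.78 to -1.26). In these 3 genes both washout libraries were lower, a separation that 32.7% of all genes tested on reads showed.

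JUN had 13.7 and 15.2 FPKM after washout, against 24.0 and 22.9 FPKM with IAA (0.617 of IAA, limma log2 change -0.66, adjusted p = 0.0182). JUNB had 43.2 and 44.3 FPKM after washout, against 56.4 and 59.5 FPKM with IAA (0.755 of IAA, log2 change -0.40, limma adjusted p = 0.0159). JUND had 58.9 and 55.6 FPKM after washout, against 76.5 and 80.0 FPKM with IAA (0.731 of IAA, log2 change -0.45, limma adjusted p = 0.0135). In all 3 both washout libraries were below both IAA libraries, as in 30.7% of all genes tested on FPKM. Without IAA replicate 1, IAA replicate 2, washout replicate 1 or washout replicate 2, FOS was the 1 gene of these 4 that passed by limma, with adjusted p up to 0.0948, 0.0866 and 0.0761 for JUN, JUNB and JUND.

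FOSL1 had 26.7 and 25.6 FPKM after washout, between its 2 libraries with IAA at 25.1 and 28.0 FPKM (voom log2 change -0.02, 95% interval -0.12 to 0.08, adjusted p = 0.811). FOSL2 had 5.01 and 4.75 FPKM after washout, against 4.48 and 4.41 FPKM with IAA, and both washout libraries were higher, as in 27.5% of all genes tested on reads. Its change of 0.14 on reads did not pass (95% interval 0.02 to 0.25, voom adjusted p = 0.0659), although it did with reads scaled by the median of ratios between libraries (adjusted p = 0.0314). BATF3 had 38 and 17 reads after washout, against 23 and 14 with IAA, which overlap.

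The comparison of washout with control asked whether levels 48 h after washout differed from those of untreated cells, which were not described as washed. None of the 9 AP-1 genes passed by limma or voom, where 0% of all genes passed by limma (0 of 8317, with 750 at an unadjusted p under 0.05) and 0.696% by voom (100 of 14367, 0.334% higher and 0.362% lower). The washout and control libraries here are the same as in the comparisons above. JUNB had 43.2 and 44.3 FPKM after washout, against 43.5 and 45.9 FPKM in control, and its 95% interval on reads was -0.16 to 0.10. JUND and FOSL1 had intervals of -0.05 to 0.19 and -0.08 to 0.13. FOS had 114 and 122 reads after washout, against 133 and 139 in control, with both washout libraries lower (voom log2 change -0.20, 95% interval -0.58 to 0.17, adjusted p = 0.742). By limma the log2 change of FOS was -0.14, with a 95% interval of -0.26 to -0.02 that lies below no change (adjusted p = 0.524).

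FOSB had 40 and 37 reads after washout, against 47 and 45 in control, and both washout libraries were lower. ATF3 had 189 and 183 reads after washout, against 216 and 199 in control, again with both washout libraries lower. Both washout libraries were below both control libraries in 17.2% of all genes tested on reads and 17.8% of those tested on FPKM. FOSL2 had 2084 and 1968 reads after washout, against 1818 and 1868 in control, and both washout libraries were higher, as in 23.6% of all genes tested on reads. JUN had an interval of -0.33 to -0.005 (voom adjusted p = 0.434), and FOSL2 one of 0.02 to 0.25 (voom adjusted p = 0.32). A p above the threshold does not show that these levels are equal, and the intervals for FOSB (-0.95 to 0.44) and BATF3 (-0.63 to 1.07) are wide.

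Gene lists around AP-1, 4 in number, were set beside the family, each described by its counts, to be read against the 6.64% of all limma-tested genes that rose with IAA and the 6.49% that fell. The lists were written with earlier results of these data known, so their counts and medians are a description only. These counts depend on single libraries, and the number changed over all genes, given in the last section, fell without single libraries too. Without control replicate 1, control replicate 2, IAA replicate 1 or IAA replicate 2, the number changed with IAA was 0 for other bZIP genes (7 with all), 2 to 4 for immediate early genes (14 with all), 3 to 4 for AP-1 targets (12 with all) and 0 for upstream genes (1 with all). With the replicate number as a block it was 5, 9, 6 and 0, in the same order, where 486 of all genes changed, against 1092 without the block. By voom it was 15 of 27 bZIP genes, 21 of 30 immediate early genes, 13 of 25 targets and 6 of 31 upstream genes. Over all genes 24.5% changed by voom. In washout against IAA, where 7.73% of all genes rose and 6.65% fell by limma, leaving out 1 IAA or washout library gave 0 to 3 bZIP genes (6 with all), 3 to 5 immediate early genes (15 with all), 2 to 5 targets (13 with all) and 0 upstream genes (1 with all). Leaving out control replicate 1 or 2 gave 7 and 6 targets and 0 upstream genes there.

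Other bZIP genes had 15 of 32 members above the FPKM filter, of which 6 rose with IAA and 1 fell, with a median log2 change of 0.18 against 0.01 over all tested genes. DDIT3, a stress factor, had 5.10 ± 0.0496 FPKM with IAA and 2.54 ± 0.188 FPKM in control (2.01-fold, limma adjusted p = 0.00941). The small MAF proteins MAFG and MAFF were 1.60-fold and 1.72-fold higher (limma adjusted p = 0.0165 and 0.00607), and ATF4, the central factor of the integrated stress response, 1.39-fold (limma adjusted p = 0.0132). CREBZF, named after its values were seen, was the member that fell, to 0.855 of control. After washout 6 of the 15 fell relative to IAA and 0 rose, with MAFG at 0.61, ATF4 at 0.647, DDIT3 at 0.595 and MAFF at 0.627 of IAA.

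Other immediate early genes had 26 of 32 members tested, of which 12 rose with IAA and 2 fell, with a median log2 change of 0.22. EGR1, a zinc finger factor induced with FOS by growth factors, had 37.4 ± 1.34 FPKM with IAA and 15.9 ± 1.54 FPKM in control (2.35-fold, limma adjusted p = 0.00529). PPP1R15A, a phosphatase subunit that restores translation after stress, was 1.89-fold higher (limma adjusted p = 0.0111). The 2 that fell were TRIB1, a pseudokinase, to 0.455 of control, and MYC, to 0.57. MAFF is in this list and in the bZIP list. NR4A2, an orphan nuclear receptor, is counted among those that rose with IAA and fell after washout, but it passed the FPKM filter only through the IAA group (mean 0.934 FPKM after washout, 1.61 with IAA and 0.774 in control), and a gene that passes in this way had to differ. After washout 12 fell and 3 rose relative to IAA, EGR1 to 0.379 and PPP1R15A to 0.555, whereas TRIB1 was 2.37-fold, MYC 1.63-fold and DUSP5, named after its values were seen, 1.32-fold higher.

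Genes known as AP-1 targets moved in both directions with IAA. Of 20 tested members of 30, 4 rose and 8 fell, with a median log2 change of -0.05, and this list includes JUN and FOSL1 themselves and KRT18, one of the epithelial markers above, which fell. F3, the coagulation starter tissue factor, fell to 0.26 of control, PLAU, the urokinase protease, to 0.363 and CCND1, cyclin D1, to 0.623 (limma adjusted p = 0.00167, 0.00297 and 0.00402). HBEGF, a growth factor that activates the EGF receptor, had 2.69 ± 0.018 FPKM with IAA and 1.39 ± 0.135 FPKM in control (1.94-fold, limma adjusted p = 0.00768). The other 3 that rose, named after their values were seen, were JUN, PLAUR (1.26-fold) and EREG (1.23-fold). After washout 7 rose and 6 fell relative to IAA, with F3 3.02-fold and PLAU 2.58-fold higher, and HBEGF at 0.436 and JUN at 0.617 of IAA.

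Genes of kinases and factors that act upstream of AP-1 had 20 of 32 members tested by limma, where 13.1% of all genes changed. Of these 1 rose with IAA, MEF2D, a factor of the MADS family that binds the JUN promoter (1.26-fold, limma adjusted p = 0.0275), and 0 fell, with a median log2 change of 0.00. By voom 6 of 31 changed, 4 higher and 2 lower, where 24.5% of all genes changed. Relative to IAA, 1 was higher after washout, the kinase gene RPS6KA4 (1.22-fold, limma adjusted p = 0.0323). Kinase activity acts on proteins and is not measured by RNA. In washout against control, 0 members of any of the 4 lists passed by limma, and by voom 5 of 25 AP-1 targets were lower and 1 of 27 bZIP genes higher, where 0.362% of all genes were lower and 0.334% higher.

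**Figure D5:**
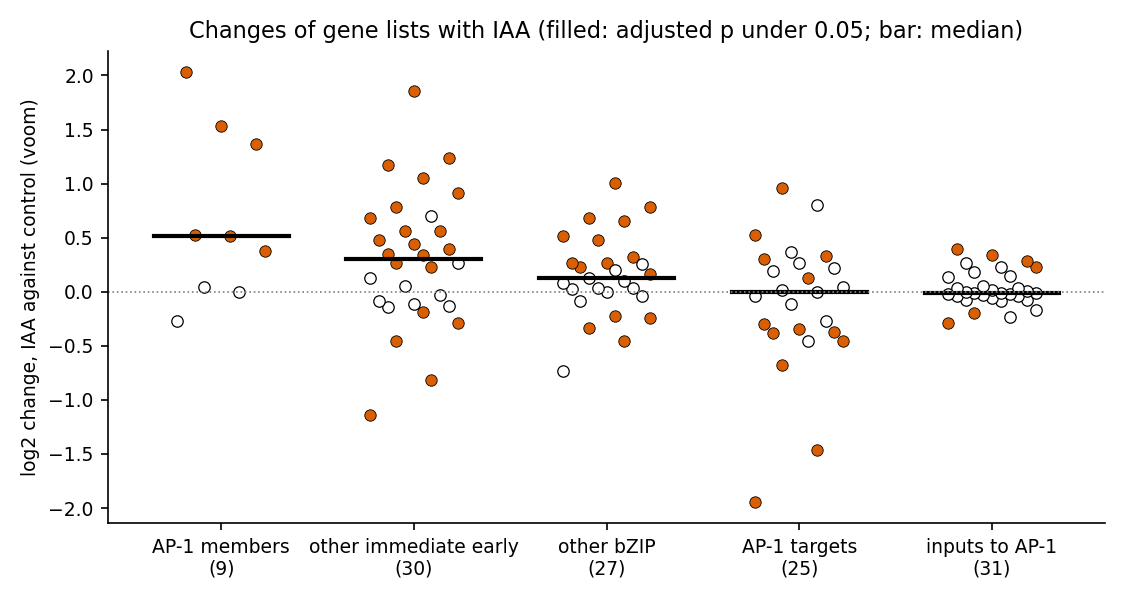
Log2 change in IAA against control on recovered reads (voom, vertical axis) for the 9 AP-1 genes and 4 gene lists, with the number of genes tested below each. Filled points have an adjusted p under 0.05 and bars are medians. AP-1 genes, other immediate early genes and other bZIP genes lie mostly above 0, AP-1 targets on both sides and upstream genes near 0.

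Genes with a profile most like those of FOS, JUN and JUNB were taken as the nearest in centred log2(FPKM + 1) over the 3 group means, among all limma-tested genes. For FOS they were EGR1 (distance 0.0267 log2 units), MIR4284 (0.0655), MIR1286 (0.0879) and TIPARP (0.111), an ADP-ribosyltransferase. MIR4284 and MIR1286 rest on 0 to 10 and 0 to 5 reads per library. MIR1286 passed the FPKM filter only through the IAA group, so it had to be higher there. It had 0 and 0.770 FPKM after washout, 1.56 and 3.82 FPKM with IAA and 1.54 and 0 FPKM in control. For JUN they were SLC30A1, a zinc exporter (0.0199), SLC7A5, an amino acid transporter (0.0241), TNFRSF10D (0.0274) and ATF4 (0.0287). For JUNB they were DOK4 (0.00268), RNF146 (0.00419), PSME2 (0.00661) and LRRC58 (0.0123). This scale understates changes of low genes, so a low gene can lie near a higher one that changed by a smaller fold. DOK4 had 1.85 and 1.88 FPKM with IAA, against 1.25 and 1.19 FPKM in control, a larger fold than that of JUNB. The distances are over 3 means of 2 libraries each and are a description only.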

How the data were processed

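RNA selected with oligo dT was sequenced in 6 libraries, and the authors deposited FPKM for every gene and library. HISAT, Bowtie2, HTSeq, edgeR and the build hg19 are named in the submitters' processing notes, without version, role or order. Low FPKM values were whole multiples of 1 read once multiplied by the gene span: in genes whose span was over 2 times the exon length, 85.6% to 86.7% of low values were whole with the GENCODE 29 span and 3.6% to 4.1% with the exon length (tolerance 0.02 reads). Reads were recovered for 95.4% of 21707 genes above 0, from the span for 16877 and from the nearest length that gave whole reads for 3841, and JUN, JUNB and JUND are among the last. Replicates differed by more than counting alone (chi-square per gene 3.34, 2.94 and 2.72 in washout, IAA and control). Intervals on reads of 1 library cover counting error only.

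Testing used limma 3.58.1 (R 4.3.3) for genes averaging 1 FPKM or more, on the scale log2(FPKM + 1), which understates changes of low genes, with 1 mean per group over all 6 libraries, a trended prior variance, 3 residual and 1.81 prior degrees of freedom, two-sided, with Benjamini-Hochberg adjustment over all genes tested. FOSB, ATF3 and BATF3 were below the filter and were tested with limma's voom on recovered reads (mean of at least 10 reads, totals from the steps, 34.13 prior degrees of freedom). Both were also run on simulated data, and the outcome is not reported here. Folds are ratios of mean FPKM unless voom is named. The AP-1 genes and the lists were chosen with earlier results of these data known. All 9 AP-1 genes are named, and from each list up to 4 genes past the test with the largest change. Alternatives were another pseudocount, filter, scaling (TPM, median of ratios), no trend, recovered reads, a replicate block and leaving out each library.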

Additional observations from a re-analysis of the deposited data

How the results depend on the processing

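The number of genes changed depended on the processing: in IAA against control it was 1092 (552 higher, 540 lower), 501 with a mean FPKM of at least 5, 486 with the replicate number as a block, 3521 by voom (2033 higher, 1488 lower), 3468 by voom with median-of-ratios scaling (1566 higher, 1902 lower), and 50 to 534 without each library in turn. Rescaled to TPM, 405 were higher and 636 lower. In washout against IAA it was 1196, and 548, 532, 3669, 3677 and 46 to 421 under the same settings (792 higher and 397 lower with TPM, 643 and 553 without), and in washout against control 0, with 48 without a filter, 100 by voom and 104 with median-of-ratios scaling. The number of AP-1 genes changed was 1 to 3 without each library in turn in IAA against control (4 with all) and 1 to 4 in washout against IAA.

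In IAA against control, JUN kept a log2 change of 0.50 but did not pass with the replicate block (adjusted p = 0.0561) or without a filter (0.0798), and FOSB had 0.91 in limma without a filter (0.0628), and -0.98 in washout against IAA (0.0539), neither passing. In washout against IAA, FOSL1 had 0.0202 when rescaled to TPM and FOSL2 passed at 0.16 with median-of-ratios scaling. The size of voom p-values depended on the read filter, with 34.13 prior degrees of freedom with it and 4.73 without. Without it, voom adjusted p in IAA against control was 0.00035 for FOS, 0.0068 for FOSB and 0.00043 for ATF3. It was 0.0074 for JUN, 0.0054 for JUNB and 0.00093 for JUND. All 6 still passed, with larger values than with the filter. Same-numbered libraries did not deviate together (r across genes -0.03 to 0.04), so the block pairs nothing that the labels name, and it lost the call of JUN and of no other AP-1 gene.

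Without each library in turn, log2 changes in IAA against control ranged from 0.40 to 0.60 for JUN, 0.33 to 0.41 for JUNB, 0.48 to 0.54 for JUND, -0.033 to 0.12 for FOSL1, -0.011 to 0.010 for FOSL2 and -0.63 to 0.10 for BATF3. In washout against IAA they ranged from -0.73 to -0.59 for JUN, -0.43 to -0.36 for JUNB, -0.49 to -0.40 for JUND, -0.095 to 0.055 for FOSL1 and -0.078 to 1.05 for BATF3, and in washout against control from -0.049 to 0.094 for FOSL1, -0.069 to 0.0084 for JUNB and -0.35 to 0.78 for BATF3. A lone library was then assumed to vary like the other groups, and the causes were not tested.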
